A study of Mus musculus with 8 samples.

Results

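Mup2, Mup6, Orm1 and Reg1 encode secreted proteins better known from the liver, the blood and the pancreas than from fat, and their probes were among the steepest risers as mouse preadipocytes turned into adipocytes in culture. They were chosen by the size of that rise in these same intensities, so the rise itself is described here without a test. All probes of the 4 genes, of 16593 genes with a probe, were taken, 5 of the 25697 probes on the array, 2 for Mup2 and 1 for each of the other genes. The detection p compares a probe with the negative control beads of its own array, and a probe under 0.05 is called detected. All 5 were among the 14232 kept probes, those detected by 2 or more of the 8 arrays.

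The major urinary proteins (Mup) are small barrel-shaped lipocalins that mouse liver secretes in large amounts. They pass into the urine, where they carry volatile pheromones, and in the blood Mup1 has been linked to glucose and lipid metabolism. Orm1, or orosomucoid, is alpha-1-acid glycoprotein, a lipocalin made mainly by the liver, whose plasma level rises in the acute-phase response and which binds drugs and lipophilic molecules. Reg1, a regenerating protein, is a secreted C-type lectin fold protein known from pancreatic acinar cells and from regenerating islets. Mup transcription in liver is known to depend on growth hormone and glucocorticoids, and Orm1 transcription on glucocorticoids and C/EBP factors.

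The cells were IRF3 WT (wildtype) and IRF3 KO (knockout) mouse preadipocytes taken from white fat, differentiated in high-glucose DMEM with NCS, insulin and sodium ascorbate and given no further treatment per the labels. RNA was taken on days 3, 5, 7 and 9, with 1 array for each genotype and day, so wildtype and knockout had 4 arrays each and no condition had a replicate. Strain, sex, age, the number of animals and whether the days of a genotype share a culture are not stated in the labels. IRF3 is a transcription factor that acts below sensors of viral nucleic acids and drives interferon genes, and the study asked how its loss bears on adipocyte differentiation.

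Irf3 itself was detected by its 3 probes on all 8 arrays, with knockout minus wildtype differences of -0.31 ± 0.19, -0.62 ± 0.15 and -0.50 ± 0.18 (log2, SE of the limma fit) and adjusted p of 0.431, 0.0752 and 0.182. Where in the gene these probes lie is unknown here, so they do not check a deletion elsewhere in the gene, and the genotype is that of the labels. The mean raw intensity per array ran from 638.0 on wildtype day 3 to 1026.0 on knockout day 7, and 47.6% to 52.2% of probes were detected. With so few arrays, their number sets the precision of every value below.

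Mup6 (ILMN_2953807) went from near background to among the bright probes of the array. In wildtype its raw intensity on days 3, 5, 7 and 9 was 156.3, 990.8, 8368 and 9471.8. In knockout it was 438.5, 14340.5, 18304 and 17751.5 on the same days. The knockout array was the brighter on each day, and the knockout array of day 5 was already brighter than the wildtype array of day 9. On the normalized scale the rise from day 3 to day 9 was 125-fold in wildtype and 59.7-fold in knockout.

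Mup2 was read by 2 probes assigned to the same transcript record. For ILMN_3065459 the raw intensity in wildtype was 150.4, 783.3, 10389.6 and 12286.4 on the 4 days. In knockout it was 459.8, 16588.5, 24008 and 20599.7. For ILMN_3143404 the wildtype values were 123.9, 646, 6862 and 8897.8, the value of day 3 not detected (p = 0.129 in the authors' table), and the knockout values were 234.8, 12095.9, 19294.1 and 17009.5. Both probes had the same order of arrays as Mup6 within each day, knockout above wildtype. The rise from day 3 to day 9 was 177-fold in wildtype and 68.2-fold in knockout by ILMN_3065459. By ILMN_3143404 it was at least 187-fold in wildtype, where day 3 was set to the lowest level among detected probes of that array, and 175-fold in knockout.

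Orm1 (ILMN_1226935) was not detected on day 3 in either genotype, at 121.8 in wildtype (p = 0.162 in the authors' table) and 156.6 in knockout (p = 0.345). Its raw intensity then went to 250, 2227.2 and 2977 in wildtype on days 5, 7 and 9. In knockout it was 2588.6, 10446.6 and 8168.3. From day 5 on the knockout array was the brighter one each day. From day 3 to day 9 Orm1 was at least 61.4-fold higher in wildtype and at least 155-fold higher in knockout.

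Reg1 (ILMN_2592415) was the earliest of the 4 genes to become bright. Its raw intensity in wildtype was 190.8 on day 3 and 15601.7, 27664.7 and 27625.4 on the later days. In knockout it was 1580.1, 28274.3, 28130.2 and 26209.4. From day 7 the genotypes lay close together, and on day 9 wildtype was slightly above knockout. By then Reg1 was among the brightest probes, 7th of the 25697 on the wildtype day 9 array and 14th on the knockout day 9 array, where the brightest probes read 29141.3 and 30908.2. Whether the scale compresses differences at this brightness was not tested. The rise from day 3 to day 9 was 233-fold in wildtype and 19.9-fold in knockout, which started higher.

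**Figure D1:**
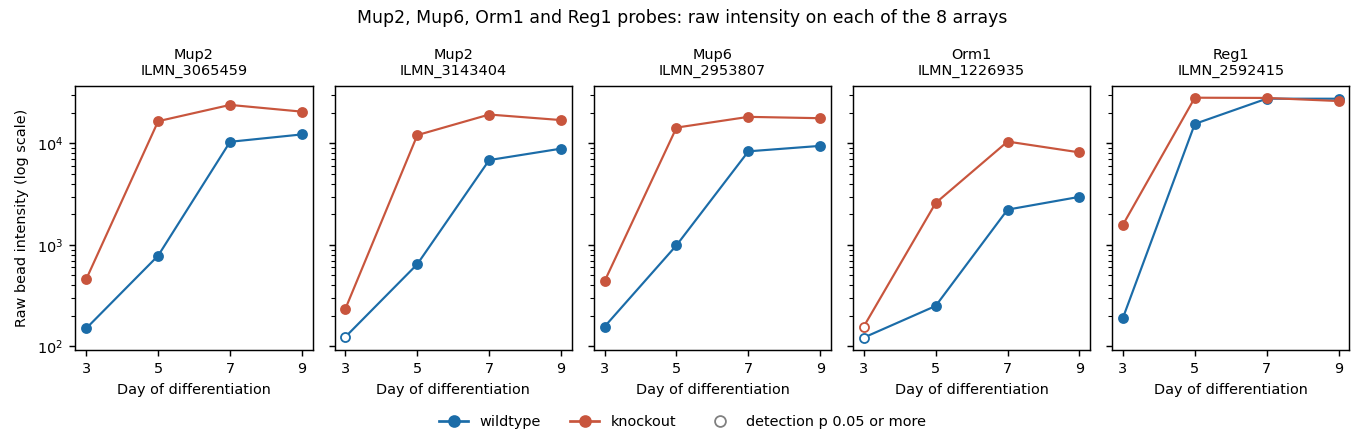
Raw bead intensity (log axis) of the 5 probes of Mup2, Mup6, Orm1 and Reg1 against day of differentiation, 1 point per array, wildtype in blue and knockout in red, open points where the detection p was 0.05 or more. The 2 Mup2 probes and Mup6 share 1 shape, with the knockout curve near its top by day 5, and Reg1 ends at 27625.4 in wildtype and 26209.4 in knockout.

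The slope over days from a fit that joined the genotypes and allowed each its own level was 1.13 ± 0.19 and 1.26 ± 0.22 log2 units per day (SE) for the Mup2 probes, 1.06 ± 0.18 for Mup6, 1.24 ± 0.19 for Orm1 and 0.93 ± 0.24 for Reg1. The median over all kept probes was -0.01. These slopes ranked 8 and 2 for Mup2, 9 for Mup6, 4 for Orm1 and 12 for Reg1 among the 14232 kept probes. By 1 probe per gene, the probe of highest mean, the order of the 9758 genes ran Thrsp, Orm1, Adig, Cidec, Mup2, Mup6, Adipoq, Reg1, Cox8b and Tmem45b. Thrsp, a regulator of lipogenesis, had a slope of 1.37, and Cox8b, just below Reg1, 0.929 against 0.934 for Reg1. Adipoq encodes the adipocyte hormone adiponectin and Cidec a lipid droplet protein. The members were chosen by their rise, so their place in this order is no separate result.

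The genes differed in when the rise took place. In wildtype, day 5 had seen 86.8% of the log2 rise of Reg1, 48.2% of that of Mup6, 41.7% and 46.3% of that of the Mup2 probes and 21% of that of Orm1, each counted from day 3 to day 9. In knockout the shares by day 5 were 97.6% for Reg1, 92.5% for Mup6, 91.2% and 92.2% for Mup2 and 78.1% for Orm1. These too were counted to day 9, although Orm1 and both Mup2 probes were highest on day 7 in knockout. Both genotypes thus ran in 1 order, with Reg1 the earliest and Orm1 the latest. The undetected day 3 values of Orm1 and of Mup2 ILMN_3143404 make their shares approximate. Across the late step from day 7 to day 9, Mup2 ILMN_3065459 went up 1.31-fold in wildtype and was 0.992 of its day 7 level in knockout.

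For the 4 genes the knockout day 5 array was also set against the wildtype day 9 array. Knockout day 5 minus wildtype day 9 was 0.27 and 0.31 (log2) for the Mup2 probes, 0.42 for Mup6, -0.36 for Orm1 and -0.17 for Reg1, 1 array against 1. Over all kept probes 53.5% were higher on the knockout day 5 array, so a positive sign there is no mark of the Mup probes.

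The promoters of Mup2, Mup6 and Reg1 are shown as those of the members, that of Orm2 as a relative of Orm1, and that of Mup21 as a further Mup gene with a probe on the array. They are RefSeq sequences on build GRCm38.p6, 150 bases just before the annotated start, 5′ to 3′ on the strand of the gene. Capitals mark matches, on either strand, to 4 motifs: the TATA box as TATANAA, C/EBP as TTGCNNAA, STAT as TTCNNNGAA and the glucocorticoid receptor hexamer as AGAACA.
Mup2, chr4:60139857-60140006, minus strand: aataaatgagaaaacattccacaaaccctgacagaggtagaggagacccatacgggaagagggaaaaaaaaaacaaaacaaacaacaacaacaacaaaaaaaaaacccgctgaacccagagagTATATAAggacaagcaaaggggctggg
Mup6, chr4:60003331-60003480, plus strand: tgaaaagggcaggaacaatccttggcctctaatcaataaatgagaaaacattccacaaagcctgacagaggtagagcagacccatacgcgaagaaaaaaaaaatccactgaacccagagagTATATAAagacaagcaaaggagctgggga
Mup21, chr4:62150842-62150991, minus strand: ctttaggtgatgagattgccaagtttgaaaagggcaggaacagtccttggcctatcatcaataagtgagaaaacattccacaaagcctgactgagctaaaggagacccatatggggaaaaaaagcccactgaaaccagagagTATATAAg
Orm2, chr4:63362299-63362448, plus strand: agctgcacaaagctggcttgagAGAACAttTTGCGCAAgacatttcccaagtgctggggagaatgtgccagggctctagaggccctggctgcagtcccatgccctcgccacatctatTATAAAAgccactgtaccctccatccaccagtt
Reg1, chr6:78425833-78425982, plus strand: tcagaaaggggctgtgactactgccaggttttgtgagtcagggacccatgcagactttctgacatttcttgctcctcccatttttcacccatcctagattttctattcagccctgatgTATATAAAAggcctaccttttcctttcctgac
A TATANAA match was found in all 5, and 2 overlapping matches in Reg1, against 6.17% of 32851 mouse promoters of the same length with a match. In Mup21 the match lay at -8 to -2 from the annotated start, nearer than in the other 4, where matches lay between -33 and -21. The C/EBP and glucocorticoid receptor matches were found in Orm2 and in none of the other 4, and lay 2 bases apart without overlap. They occur in 5.46% and 9.62% of all promoters. STAT matches, held by 4.09% of all promoters, were not found in these 5 windows. A match of letters is a description and shows no binding.

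The Mup2 and Mup6 windows can be read against each other almost base for base around the TATA box. Over the 300-base windows that include the first 50 transcribed bases, Mup2 and Mup6 were identical at 93.2% of 263 aligned bases. Against the 13 other Mup promoters of the table, Mup2 was identical at between 87.1% (Mup21) and 99.6% (Mup11) of aligned bases. The Mup6 range was 85.5% (Mup21) to 93.2% (Mup2). GRCm38.p6 annotates 22 protein-coding Mup genes, all on chromosome 4, and 5 of them had a probe here, 8 probes in all. Older names overlap as well, since Mup2 is listed as a synonym of both Mup6 and Mup9.

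With no probe letters used here, which Mup transcripts each probe can bind was not tested. The measured facts are these. The log2 levels of Mup2 ILMN_3065459 and Mup6 had a Pearson r of 0.998 over the 8 arrays, and their log2 ratio stayed within a range of 0.74 while both rose by over 5 units. The 2 probes of Mup2 itself had r = 0.995 and a ratio range of 1.45. Mup2 ILMN_3143404 and Mup6 had r = 0.997 and a ratio range of 1.68. By the ratio, Mup6 was thus nearer to ILMN_3065459 than the 2 Mup2 probes were to each other, but farther from ILMN_3143404. How the signal divides between these and other Mup genes is uncertain. The 8 arrays share the rise over days, which alone gives high correlations: Mup2 had r = 0.970 with Orm1, which was not detected on 2 of the arrays, and 0.904 with Reg1, and Orm1 had 0.812 with Reg1.

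The other Mup probes were dimmer, and several were not detected on some arrays, so their log2 ratio to Mup2 ILMN_3065459 is given over the arrays on which both were detected. Over such arrays it ranged over 2.40 log2 units for Mup20, which encodes darcin, a male pheromone protein (5 arrays), and over 5.92 for Mup21 (6 arrays). For Mup5 it ranged over 4.16 by ILMN_3079257 (4 arrays, all knockout) and over 5.08 by ILMN_3158509 (6 arrays). These ranges were wider than the 0.74 between Mup2 ILMN_3065459 and Mup6, and whether they reflect what each probe binds was not tested.

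The genotype comparison asked whether the level over the 4 days differed between knockout and wildtype, with day as a factor in limma and the 4 daily differences as the repeats. The choice of the genes by their rise did not use this difference. The p-values rest on the spread between these daily differences, moderated by a variance prior taken from all kept probes. They measure no other spread. With the prior the fit had 7.1 total degrees of freedom. In bulk RNA more cells of a type and more RNA per cell cannot be told apart.

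Knockout stood above wildtype for the Mup probes on all 4 days, most of all on day 5. For Mup2 ILMN_3065459 the knockout to wildtype ratio was 4.56, 24.7, 2.31 and 1.75 on days 3, 5, 7 and 9. For ILMN_3143404 it was at least 1.98, then 23.7, 2.94 and 1.86. For Mup6 it was 3.82, 16.4, 2.32 and 1.82. The 3 probes were above wildtype on every day, as were 12.9% of all kept probes.

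Orm1 followed the same course from day 5, when the ratio was 25.7, to 4.97 on day 7 and 2.62 on day 9, with both arrays below background on day 3. Reg1 differed, with its largest ratio on day 3, 11.2, and then 1.83, 1.04 and 0.957. The day of the largest ratio was therefore day 5 for Mup2, Mup6 and Orm1 and day 3 for Reg1. Each ratio compares 1 array with 1 and has no replicate check.

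None of the 5 probes passed the adjusted threshold of 0.05 in the limma test of genotype, while 610 of the 14232 kept probes, 4.29%, did, 2.36% with knockout higher and 1.93% with knockout lower. The difference was 2.21 ± 0.57 (log2, SE) for Mup2 ILMN_3065459, with an adjusted p of 0.0884 and a 95% interval from 0.86 to 3.56. It was 2.10 ± 0.56 for ILMN_3143404 (adjusted p = 0.0951) and 2.01 ± 0.48 for Mup6 (adjusted p = 0.0704). For Orm1 it was 2.04 ± 0.68 (adjusted p = 0.165; interval 0.43 to 3.64), and for Reg1 1.09 ± 0.55 (adjusted p = 0.346; interval -0.22 to 2.39).

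For Mup2, Mup6 and Orm1 the day 5 difference lay far above the other days. The median difference over all kept probes was -0.02. Quantile normalization tends to hold this median near 0, so it gives no scale for the size of a difference. Before adjustment 4 of the 5 probes had a p under 0.05, as had 2706 of the 14232 kept probes, and the p was 0.00603 and 0.00696 for Mup2, 0.00390 for Mup6, 0.0198 for Orm1 and 0.0895 for Reg1. Without day 5 the difference fell to 1.27 and the adjusted p to 0.0403 for Mup2 ILMN_3143404. Mup6 passed with a background offset of 50 (adjusted p = 0.0386) and with median scaling (0.0416), and Orm1 passed without day 3, where it was not detected (2.80, adjusted p = 0.0348).

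**Figure D2:**
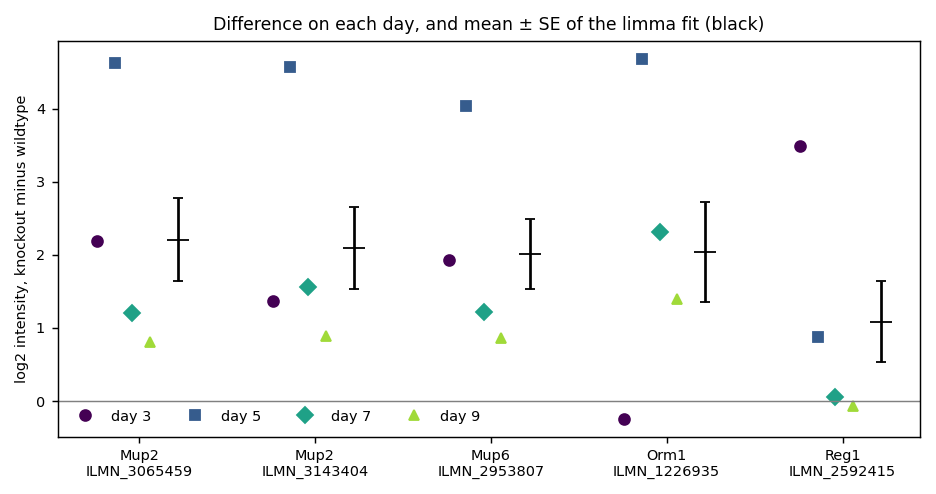
Knockout minus wildtype log2 intensity for the 5 probes on each day (coloured points, 1 array against 1), with the mean and SE of the limma fit in black. The day 5 points of Mup2, Mup6 and Orm1 lie above the other days, Reg1 has its highest point on day 3, and the day 3 point of Orm1 compares 2 arrays on which it was not detected.

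No difference in slope between the genotypes passed the test. In wildtype and knockout they were 1.32 and 0.94 for Mup2 ILMN_3065459, 1.37 and 1.15 for ILMN_3143404, 1.21 and 0.91 for Mup6, 1.18 and 1.30 for Orm1 and 1.22 and 0.65 for Reg1. Knockout minus wildtype was largest for Reg1, at -0.57 ± 0.47 per day (adjusted p = 0.927; 95% interval -1.65 to 0.50). For the other 4 probes it lay between -0.38 and 0.13, with adjusted p from 0.952 to 0.991. In this test limma called 0 of 14232 probes, 0.0%, with 854 at an unadjusted p under 0.05, so it separated no probe at all. Most of the knockout rise fell in the step from day 3 to day 5, so a straight line is a coarse summary of it.

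Among the relatives of the members, 14 further Mup, Orm and Reg probes were on the array and 7 were kept. Mup5 was the relative that passed the genotype test, by its probe ILMN_3158509. Its probe ILMN_3079257 was not detected on any wildtype array, at 115.9, 207.7, 195.9 and 153.7, and was detected on all 4 knockout arrays, at 226.3, 435.4, 564.5 and 692.0. Knockout was at least 5.15-fold higher over the 4 days (limma difference 2.76 ± 0.38). This probe was kept through its knockout arrays alone, so its genotype test is not read as a call. Its probe ILMN_3158509 read 94.3, 178.0, 214.0 and 240.3 in wildtype and 204.0, 378.8, 719.1 and 607.2 in knockout, and differed by 2.36 ± 0.26 (adjusted p = 0.00382). The knockout array was the brighter on each day for both. Over days ILMN_3158509 rose at 0.43 ± 0.06 per day (adjusted p = 0.00270), while ILMN_3079257 had a slope of 0.21 ± 0.09 (adjusted p = 0.140). The remaining Mup5 probe, ILMN_1226884, was not detected on any array, so the probes of Mup5 disagree. Both kept probes of Mup5 read at low raw intensity, 719.1 at most.

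Mup20 had a difference of similar size, 2.26 ± 0.51, with an adjusted p of 0.0603. Its raw intensity was 105.6, 187.9, 268.7 and 417.7 in wildtype and 153.9, 522.7, 1501.3 and 1479.2 in knockout. It was not detected on wildtype days 3 and 5 or on knockout day 3. It rose over days with a slope of 0.76 ± 0.11 (adjusted p = 0.00396), as did 7.53% of all kept probes. Mup21 had a slope of 0.00012 and a genotype difference of 0.78 ± 0.19 (adjusted p = 0.0739). Its level went up from day 3 to day 5, 2.31-fold in knockout and at least 1.85-fold in wildtype, and was lower again by day 9, when it was not detected in wildtype.

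Orm2, the relative of Orm1 whose promoter is shown above and also an acute-phase protein, rose over days with a slope of 0.62 ± 0.11 (adjusted p = 0.00745). Its raw intensity was 123.2, 175.2, 287.6 and 310.5 in wildtype and 160.9, 348.8, 1050.0 and 853.9 in knockout. It was not detected on wildtype days 3 and 5 or on knockout day 3. Between wildtype days 3 and 5 its normalized log2 level went from 5.20 to 4.91. Its genotype difference was 1.74 ± 0.45 (adjusted p = 0.0884), and its log2 level had r = 0.950 with Orm1 over the 8 arrays. Orm3 was not detected on any array.

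In the Reg family, Reg1 stood nearly alone. Reg2, Reg3b, Reg3d and Reg4 were not detected on any array by any of their 5 probes. Reg3g, an antimicrobial lectin of the gut, read 118.0, 366.2, 470.5 and 462.2 in wildtype and 154.1, 347.1, 266.2 and 232.3 in knockout. It was lower in knockout on days 5 to 9, opposite to the early difference of Reg1, with a genotype difference of -0.98 ± 0.33 (adjusted p = 0.172) and a slope of 0.37 ± 0.13 (adjusted p = 0.0813). Reg3a stayed near background, with at most 260.6, and its genotype difference was -0.31 ± 0.20 (adjusted p = 0.467).

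**Figure D3:**
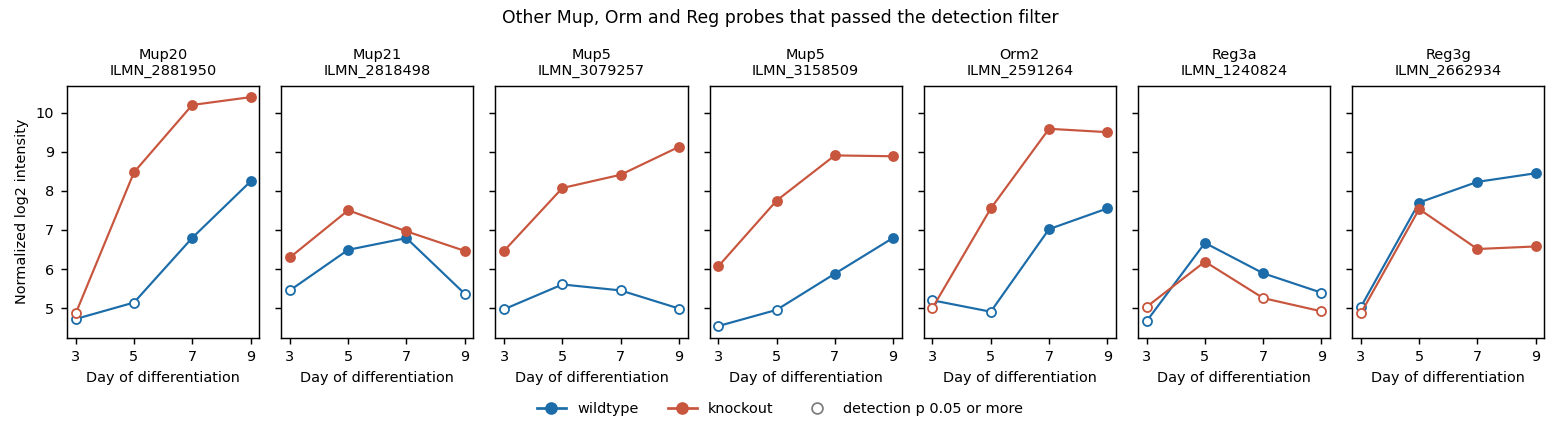
Normalized log2 intensity of the 7 other Mup, Orm and Reg probes that were kept, by day, 1 point per array, wildtype in blue and knockout in red, open points where not detected. Both Mup5 probes lie above wildtype in knockout on all days, Mup20 and Orm2 rise in both genotypes, and Reg3g ends lower in knockout.

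Other lipocalins moved in both directions over days. Of 7 kept probes, 1 passed the genotype test and was higher in knockout: Rbp4, which carries retinol in plasma, with a difference of 2.04 ± 0.23 (adjusted p = 0.00418) and a slope of 0.38 ± 0.07 (adjusted p = 0.0105). Apod, a lipid-binding lipocalin, rose over days at 0.48 ± 0.09 (adjusted p = 0.01002) and Ambp, the alpha-1-microglobulin precursor, at 0.31 ± 0.05 (adjusted p = 0.00782), while Apom, an apolipoprotein of HDL, fell at -0.16 ± 0.04 (adjusted p = 0.0391). Ambp was detected on 1 wildtype and 3 knockout arrays, so background-level values enter its slope. Lcn2, an inflammation-induced iron-trafficking lipocalin, had a slope of -0.09 (adjusted p = 0.386). The median slope was 0.13, against -0.01 over all kept probes. Of all kept probes 2.36% were higher and 1.93% lower in knockout, and 7.53% rose and 7.50% fell over days.

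Other plasma proteins of the liver rose in part. Of 26 kept probes of 21 genes, from 51 listed, 7 rose over days and 0 fell, against 7.53% and 7.50% of all kept probes. The 7 include the 3 probes of Hp and that of Apoc3, which was detected on 1 wildtype and 2 knockout arrays. Trf, transferrin, had a slope of 0.81 ± 0.11 (adjusted p = 0.00288), and its log2 level went from 8.17 to 12.13 in wildtype and from 7.38 to 12.80 in knockout between day 3 and day 9. Hp, haptoglobin, rose by its 3 probes, at 0.70, 0.69 and 0.56 per day (adjusted p = 0.0128, 0.0142 and 0.0260). By genotype 1 probe was called higher and 1 lower in knockout, against 2.36% and 1.93% of all kept probes. The higher one, Apoc4, an apolipoprotein, was not detected in wildtype and at least 1.87-fold higher in knockout. It was kept through its knockout arrays alone, so no result is drawn from its call. Fetub, a fetuin, was lower (-0.83 ± 0.16, adjusted p = 0.0350), and was detected on 4 wildtype arrays and 1 knockout array. The median genotype difference of the list was 0.03, and neither Trf (0.45, adjusted p = 0.495) nor Hp (0.47 to 0.64, adjusted p from 0.289 to 0.327) passed the genotype test.

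Of the factors known to act on these genes, 25 probes of 18 genes were kept, with 2 higher and 1 lower in knockout and 6 rising and 2 falling over days. Over all kept probes 2.36% were higher and 1.93% lower in knockout, and 7.53% rose and 7.50% fell. Pparg, the master regulator of adipocyte differentiation, was higher in knockout by 1.12 ± 0.22 with ILMN_1221060 (adjusted p = 0.0398), while its other kept probes named here, at 1.19 and 1.24, had adjusted p of 0.0554 and 0.0732. Ghr, the growth hormone receptor, was higher by 0.87 ± 0.18 by ILMN_3138922 (adjusted p = 0.0444; 0.71 and 0.0622 by ILMN_1253504) and Jak2, the kinase below it, lower (-0.76 ± 0.15, adjusted p = 0.0404). Ghr rose over days at 0.48 per day by ILMN_3138922. Socs3, a cytokine signalling inhibitor, had a genotype difference of -0.91 ± 0.20 (adjusted p = 0.0530). The list's median was -0.14 for genotype and -0.04 for the slope.

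Markers of cell types moved with the members to different degrees. Of the mature adipocyte markers, 16 of 21 kept probes rose over days and 6 were higher in knockout, against 7.53% and 2.36% of all kept probes, with median slope 0.54 and median genotype difference 1.40. Their summed normalized intensity over 19 genes with a probe was 28752 to 66069 on the wildtype and 33214 to 107662 on the knockout arrays. Lpl, at 14.68 (log2) on wildtype day 3 with a slope of -0.03, weighs heavily in that sum. From day 3 to day 9 the list's median log2 level went from 5.28 to 8.73 in wildtype and 5.71 to 9.95 in knockout. Cd36 and Pck1 were not detected on any array. Of the macrophage markers, 20 of 23 kept probes rose and 14 were higher in knockout, against the same 7.53% and 2.36%, with a median genotype difference of 1.77, and the sum was 4663 to 49973 in wildtype and 17094 to 125881 in knockout. From day 3 to day 9 the median log2 level of the macrophage list went from 6.90 to 9.52 in wildtype and 8.02 to 11.62 in knockout. Of the 14 probes, Ptprc ILMN_1212836 was detected on no wildtype array and kept through 2 knockout arrays alone. All 17 macrophage genes with a probe were detected on at least 1 array. The part of either list in the levels of Mup2, Mup6, Orm1 and Reg1 was not tested.

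Markers of the organs from which the members are best known were low. Of 15 hepatocyte genes with a probe, 1 to 4 were detected on any array, and Alb, Apoa1, Apoa2, Cps1, Cyp3a11, Fgb, Serpina1a, Tat and Ttr were not detected on any. Their sum was 557 to 768 in wildtype and 597 to 3738 in knockout, the highest on day 9, when Arg1 read 11.64 (log2). Here and for the acinar list, each sum includes the background-level values of the undetected genes. None of the 6 kept hepatocyte probes passed the genotype or the slope test in limma, with 0 and 2 at an unadjusted p under 0.05. Of 13 pancreatic acinar genes with a probe, Cela1 was the single gene detected, and its slope was 0.29 ± 0.05 (adjusted p = 0.00609). The other 12, among them Amy2a5, Cpa1, Cpb1, Ctrb1 and Prss2, were not detected on any array, and the sum was 589 to 819 in wildtype and 638 to 1635 in knockout. Preadipocyte markers had sums between 63556 and 77424, and of 15 kept probes 1, that of Dlk1, was higher in knockout, 1 rose and 1 fell over days. Of all kept probes 2.36% were higher in knockout, 7.53% rose and 7.50% fell.

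**Figure D4:**
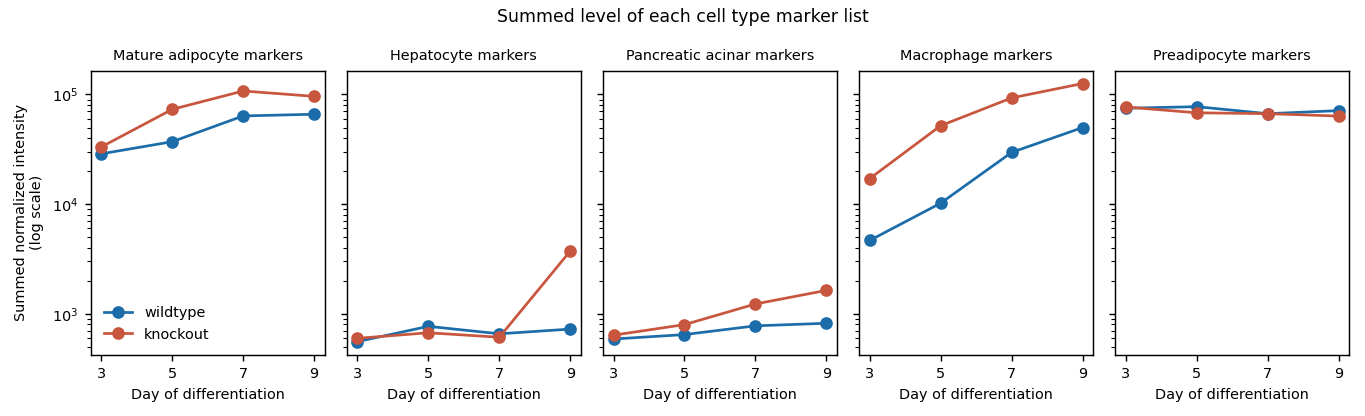
Summed normalized intensity (log axis) of the genes of each cell type marker list by day, 1 point per array, wildtype in blue and knockout in red. Adipocyte and macrophage sums rise, hepatocyte sums stay at 768 or below except on the knockout day 9 array (3738), and acinar sums reach 1635.

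The genes whose log2 levels were most like each member over the 8 arrays differed between the members. After Mup6, those nearest to Mup2 were Lep, the adipocyte hormone leptin (r = 0.995), Aldh1a7, an aldehyde dehydrogenase (0.993), Ccdc115 (0.992) and Cdo1, cysteine dioxygenase (0.991). After Mup2, those nearest to Mup6 were Lep (0.994), Aldh1a7 (0.993), Cdo1 (0.992) and Dgat2, an enzyme of triglyceride synthesis (0.991). For Orm1 they were Sult1a1, a sulfotransferase (0.998), Nabp1 (0.997), Adig, adipogenin (0.996), Thrsp (0.995) and Agpat2, another enzyme of triglyceride synthesis (0.994). For Reg1 they were Wdr45 (0.995), Hp (0.991), the chemokine gene Ccl12 (0.985), H2ac18 (0.982) and Zfyve21 (0.982). A few such as Wdr45 and Ccdc115 changed by a small amount, with slopes of 0.15 and 0.08, against 0.93 for Reg1 and 1.13 for Mup2. The arrays share the order of days and genotypes, so these values describe likeness and carry no p.

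The deposited processed matrix does not show all of this. Orm1 stood at its floor of 20 on all 8 arrays, although its raw intensity reached 10446.6. The same held for Mup20, for the kept Mup5 probes, for Reg3g and for Reg3a, while Mup6, Reg1 and Mup2 ILMN_3065459 were above the floor on all arrays and ILMN_3143404 was at the floor on 1. Among the kept probes 676, 4.75%, were at the floor throughout, and none of these was detected on the wildtype day 3 array, where 1550 kept probes in all were not detected. By highest raw intensity Orm1 was 2nd among the 676.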

How the data were processed

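Per the labels' protocols, TRIzol RNA was labelled as biotinylated cRNA (Ambion MessageAmp) and hybridised to Illumina arrays. The authors deposited a table of raw, linear bead intensity without background subtraction and a detection p-value per probe and array. They also deposited a matrix of processed intensity with a floor of 20, made by an unstated normalization, which served as an alternative.

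Raw intensities went through neqc of limma 3.58.1 in R 4.3.3 (normexp background from the detection p-values, offset 16, quantile normalization, log2). Probes detected on at least 2 of 8 arrays were kept. Of 25697 probes, 23978 had 1 gene symbol, 0 several and 1719 none. Two-sided moderated tests were fitted on all kept probes with Benjamini-Hochberg adjustment over 14232 probes and a threshold of 0.05: genotype with day as a factor (3 residual degrees of freedom), the slope over days with genotype as a term (5) and the difference in slope (4). The genotype and difference-in-slope tests were also run on simulated data with known constant changes and independent normal errors. Such data do not check the tests for arrays that share a culture or for differences that change by day. "At least" marks a bound against the lowest level among detected probes of the array. Intervals cover the fit's error at 95%.

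The genes, the lists and the tests were chosen with earlier results of these data known. Named were every probe of the 4 genes and of the Mup, Orm and Reg families, and from each further list genes among the up to 5 of smallest genotype p, 5 of largest rise and 3 of largest fall. The labels do not tell whether arrays come from separate cultures or animals. Alternatives changed the background correction, the offset, the scaling, the detection filter, the choice of probe, the variance prior, the day term and the arrays included.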

Additional observations from a re-analysis of the deposited data

How the results depend on the processing

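The genotype differences of the 5 probes kept their direction under every alternative run, and their side of the threshold except for Mup6 with an offset of 50 (1.91) or with median scaling (2.02), Mup2 ILMN_3143404 without day 5 (1.27) and Orm1 without day 3 (2.80), which passed. When 1 day was left out they ranged from 1.40 to 2.67 for Mup2 ILMN_3065459, 1.27 to 2.50 for ILMN_3143404, 1.34 to 2.40 for Mup6, 1.16 to 2.80 for Orm1 and 0.29 to 1.47 for Reg1. The 610 probes called for genotype became 113 with the deposited processed values (452 without probes at the floor on all arrays, an alternative chosen after seeing the data), 1008 with a trended and robust prior, 173 with no day term and 227 to 1340 when 1 day was left out, the highest without day 3. The 0 probes called for a difference in slope became 2 without background correction. The differences in slope changed sign when single arrays were left out: Mup2 ILMN_3065459 to 0.21 and ILMN_3143404 to 0.52 and Mup6 to 0.26 without knockout day 9, ILMN_3143404 to 0.09, Mup6 to 0.0033 and Reg1 to 0.39 without wildtype day 3, and Orm1 to -0.13 without wildtype day 9 and -0.74 without knockout day 3. Their leave-out ranges were -1.18 to 0.21, -1.23 to 0.52, -1.10 to 0.26, -0.74 to 0.89 (Orm1) and -1.26 to 0.39 (Reg1). The cause was not tested. Slopes over days stayed positive throughout; that of Reg1 went from 0.93 to 0.54 without wildtype day 3. The 2138 probes called for the slope became 1287 with the deposited values and 498 to 2241 when 1 array was left out, the lowest without knockout day 3. Mup20 and Orm2 passed the genotype test without day 3, when neither was detected (2.96, adjusted p = 0.00232, and 2.39, 0.00157), with an offset of 50 (adjusted p = 0.0282 and 0.0413), with median scaling (0.0311 and 0.0499) and with the trended and robust prior (0.0451 and 0.0425). Mup20 also passed without background correction (0.0334) and with the stricter detection filter (0.0497), and Mup21 with median scaling (0.0485). Mup5 ILMN_3158509 lost its call with no day term (0.245). Orm1 gives no value on the deposited matrix, where it is constant. The labels give no replicate numbers to pair by; the genotype fit already pairs the arrays by day.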
